A study of Caenorhabditis elegans with 2 samples.

Results

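The genes described here are the 31 protein-coding genes of *Caenorhabditis elegans* whose names start with rps-, out of 19985 protein-coding genes in the annotation (Ensembl release 115, assembly WBcel235, which is ce11). They encode proteins of the cytoplasmic small ribosomal subunit. The rule goes by name and uses no binding value, but earlier results of these data were known when it was set. The name rule leaves out *ubl-1*, which carries the S27a protein behind a ubiquitin-like domain, *rack-1*, and the mitochondrial mrps- genes. The data are ChIP-seq of SNPC-4, in 2 biological replicates that form 1 group. The animals were whole L2 larvae, males and females pooled, of strain OP179. This strain carries the *unc-119(ed3)* III mutation and the transgene insertion wgIs179, which encodes SNPC-4 fused to eGFP, so binding is that of a tagged protein expressed from a transgene. No second genotype, stage or treatment was labelled, and every animal carried the same alleles. In whole animals, stronger binding per cell and binding in more cells cannot be told apart.

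SNPC-4 belongs to SNAPc, a complex that recognises the proximal element of snRNA promoters and brings in RNA polymerase II or III. In worms it is also known for its role at trans-splicing leader and piRNA genes. Ribosomal protein genes are transcribed by RNA polymerase II at high rates in growing larvae, and several carry small nucleolar RNA (snoRNA) genes in their introns, which are released when the host transcript is spliced. Many worm mRNAs receive a spliced leader, so that an annotated 5' end can be the splice site of the leader and the promoter can lie further upstream.

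The sequence under the peaks is shown first. Of the 23 member peaks 10 held 1 or more of a few short sequences, found at 2.09% of all 1864 peaks of the IDR list. That list holds the authors' peaks that passed an irreproducible discovery rate (IDR) threshold, meant to keep peaks whose ranks hold between replicates, and a summit is the strongest base of a peak. Each line gives 101 bases of ce11, from 50 bases before to 50 bases after the summit, 5' to 3' on the strand of the rps- gene. The 5 sequences of 8 bases found at the most member peaks, counted on both strands, were GCAGCCAA, GCTGCGTA, ATTCAACG, ACGTTGAA and GTTGAATA. The first and second of them overlap in 5 bases when read on opposite strands, and the other three overlap each other as well. They were picked on these peaks, so their counts are a description with no test. Capitals mark every match to any of the 5. The first 4 windows hold at least 1 sequence of each kind and lie at chrIII:4754300-4754400 (minus strand) for rps-0, chrIII:6206434-6206534 (plus strand) for rps-3, chrIII:1950361-1950461 (plus strand) for rps-22 and chrV:7776282-7776382 (plus strand) for rps-30.
rps-0: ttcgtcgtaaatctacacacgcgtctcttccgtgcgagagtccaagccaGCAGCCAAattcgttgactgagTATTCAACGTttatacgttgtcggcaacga
rps-3: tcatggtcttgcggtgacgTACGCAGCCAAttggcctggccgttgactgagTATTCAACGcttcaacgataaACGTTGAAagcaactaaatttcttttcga
rps-22: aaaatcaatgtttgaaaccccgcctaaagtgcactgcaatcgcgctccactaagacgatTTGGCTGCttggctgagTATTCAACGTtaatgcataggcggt
rps-30: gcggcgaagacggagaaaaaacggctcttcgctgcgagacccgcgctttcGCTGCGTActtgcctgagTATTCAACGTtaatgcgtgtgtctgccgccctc
In each of these 4 windows the matches of the second kind lay downstream of a match of the first kind. The next 3 windows hold the first kind only and lie at chrIII:7179798-7179898 (minus strand) for rps-14, chrIV:385543-385643 (plus strand) for rps-24 and chrIII:7189915-7190015 (minus strand) for rps-21.
rps-14: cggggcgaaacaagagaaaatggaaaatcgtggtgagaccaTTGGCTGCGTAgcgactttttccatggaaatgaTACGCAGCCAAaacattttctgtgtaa
rps-24: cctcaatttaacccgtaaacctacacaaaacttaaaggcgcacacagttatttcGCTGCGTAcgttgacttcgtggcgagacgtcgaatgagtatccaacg
rps-21: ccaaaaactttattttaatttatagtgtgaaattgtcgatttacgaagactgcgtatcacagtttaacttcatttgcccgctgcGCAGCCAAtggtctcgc
The window of *rps-14* held the 2 overlapping sequences in both orientations. The last 3 windows, at chrIII:5679088-5679188 (plus strand) for rps-12, chrIII:4475603-4475703 (plus strand) for rps-1 and chrIV:1659210-1659310 (plus strand) for rps-28, belong to 3 of the 5 strongest member peaks, and none of them held a match.
rps-12: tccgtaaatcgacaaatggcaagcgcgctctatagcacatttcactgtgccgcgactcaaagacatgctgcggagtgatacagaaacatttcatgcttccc
rps-1: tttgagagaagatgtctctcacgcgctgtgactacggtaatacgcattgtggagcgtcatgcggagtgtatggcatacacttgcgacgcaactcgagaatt
rps-28: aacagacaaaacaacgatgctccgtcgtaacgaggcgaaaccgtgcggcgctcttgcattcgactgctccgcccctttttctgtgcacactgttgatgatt
A further sequence, AAAGGCNC with any base at N, was read by eye in the windows and is shown in capitals in the last set, at chrIV:11111354-11111454 (minus strand) for rps-5, chrII:11126545-11126645 (minus strand) for rps-9, chrIV:5947890-5947990 (minus strand) for rps-25 and chrIV:11602240-11602340 (plus strand) for rps-11. It shares no bases with the other matches here, and *rps-11* is shown from its pooled candidate.
rps-5: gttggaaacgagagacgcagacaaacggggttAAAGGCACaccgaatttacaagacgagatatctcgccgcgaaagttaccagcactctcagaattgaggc
rps-9: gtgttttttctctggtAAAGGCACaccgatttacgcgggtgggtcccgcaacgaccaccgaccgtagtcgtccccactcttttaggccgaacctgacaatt
rps-25: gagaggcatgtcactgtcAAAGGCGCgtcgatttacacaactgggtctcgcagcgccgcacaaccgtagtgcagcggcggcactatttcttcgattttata
rps-11: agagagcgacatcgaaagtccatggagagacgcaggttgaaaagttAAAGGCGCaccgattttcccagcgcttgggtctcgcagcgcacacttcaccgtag

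Over all members, GCAGCCAA and GCTGCGTA were each within 50 bp of the summit at 6 of 23 member peaks (26.1%). Of all 1864 peaks of the IDR list, 16 (0.858%) and 22 (1.18%) held them. ATTCAACG, ACGTTGAA and GTTGAATA were each at 5 member peaks (21.7%), against 9, 11 and 11 of all peaks. At least 1 of the 5 was found at 10 member peaks (43.5%) and at 18 of 914 peaks (1.97%) at other coding promoters. At large-subunit (rpl-) genes it was found at 6 of 35 peaks (17.1%). Without the peaks shared with an rps- gene these were 3 of 32 (9.38%). The 3 shared peaks, those of *rps-10*, *rps-14* and *rps-30*, each held a match and count for both families. The windows of *rps-19* and *rps-10*, not printed, held the first kind only, and that of *rps-20* the second kind only. Only 6 of the 1864 peaks held a sequence of both kinds, and 4 of these were the peaks of *rps-0*, *rps-3*, *rps-22* and *rps-30*. The other 2 were the peak of *rpl-13* and a peak on chromosome III with no coding 5' end within 500 bp. The letters are common in the genome. Of 2055 matches to GCAGCCAA, 20 lay within 50 bp of a summit of the IDR list, and of 3560 matches to ATTCAACG, 10 did. In the 500 bp upstream of the annotated gene start, ATTCAACG was present at 7 of 31 members (22.6%) and at 304 of all 19985 coding genes (1.52%). GCAGCCAA was present there at 6 members (19.4%) and at 0.926% of all coding genes. This stretch takes in the member summits on which both sequences were picked, so these shares repeat that choice and are no separate support. Of the 5 sequences, only ACGTTGAA was present in that stretch at any of the 8 members with no IDR summit, at 1 of them, *rps-2*. The sequences were picked at members with a summit and are rare upstream of coding genes, so nothing is read from their absence. AAAGGCNC, on either strand, was near the summit at 6 of 23 members (26.1%), *rps-5*, *rps-6*, *rps-9*, *rps-17*, *rps-24* and *rps-25*, and at 7 of 35 rpl- peaks, against 66 of all 1864 peaks (3.54%). In the 500 bp upstream it was present at 11 of 31 members (35.5%), 4 of them among the 8 with no IDR summit, against 5.96% of all coding genes. It was read by eye in member windows that lie within that stretch. With it, 15 member peaks (65.2%) held at least 1 of the sequences, against 12 of 35 rpl- peaks (34.3%), 9 of 32 rpl- peaks not shared with an rps- gene (28.1%) and 62 of 914 peaks at other coding promoters (6.78%). Of those 15, only *rps-24* held both AAAGGCNC and 1 of the 5. TATAAA, the core of the TATA box, was found near 3 member summits (13.0%), near 0 of 35 rpl- summits and near 90 of all 1864 summits (4.83%), on either strand. GC content of the windows had a median of 49.5% at members (quartiles 46.5 and 53.0), against 48.5% at all peaks (43.6 and 53.5). A match describes the letters only, and no match says nothing of the factor.

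SNPC-4 peaks lay upstream of most small-subunit ribosomal protein genes. Of the 31 members, 23 had an IDR summit within 500 bp of an annotated 5' end (74.2%, 95% exact interval 55.4 to 88.1, which covers the counting of genes only). Over all 19985 protein-coding genes the share was 6.34%. In the pooled candidate list, called on the reads of both replicates together, 27 members had a summit (87.1%), against 38.0% of all coding genes. The replicate 1 list had a summit at 27 members, against 30.4% of all coding genes. The replicate 2 list also had one at 27 members, against 38.3%. The 27 were not the same genes in each list: 23 members had a summit in all 4 lists, and these were the 23 with an IDR summit. No test was run, since the labels give 1 group.

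The window matters for these genes. At 250 bp around the 5' end, only 7 members kept an IDR summit (4.15% of all coding genes did), and a peak interval covered the 5' end at 1 member, *rps-22* (2.34% of all coding genes). The member summits lay far upstream, at the distances given further on.

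Peak signal, the strength the authors' peak caller gave each peak, ran from 31.0 to 205 at the 23 members, with a median of 61.7 (quartiles 44.2 and 86.9). Over the 1267 coding genes with an IDR summit the median was 45.2 (35.7 and 65.0). No member was among the 100 strongest of the 1864 IDR peaks, while 12 of the 23 were among the 500 strongest and 17 among the stronger 932 (3.41% of all coding genes had a summit there). At each of the 23 members the IDR signal and rank were the same as the pooled signal and rank. The IDR values are thus those of the pooled reads and no separate measure of agreement between replicates. Signals are compared within 1 list only, since the scaling of the values to depth is not stated in the sources used here.

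**Figure D1:**
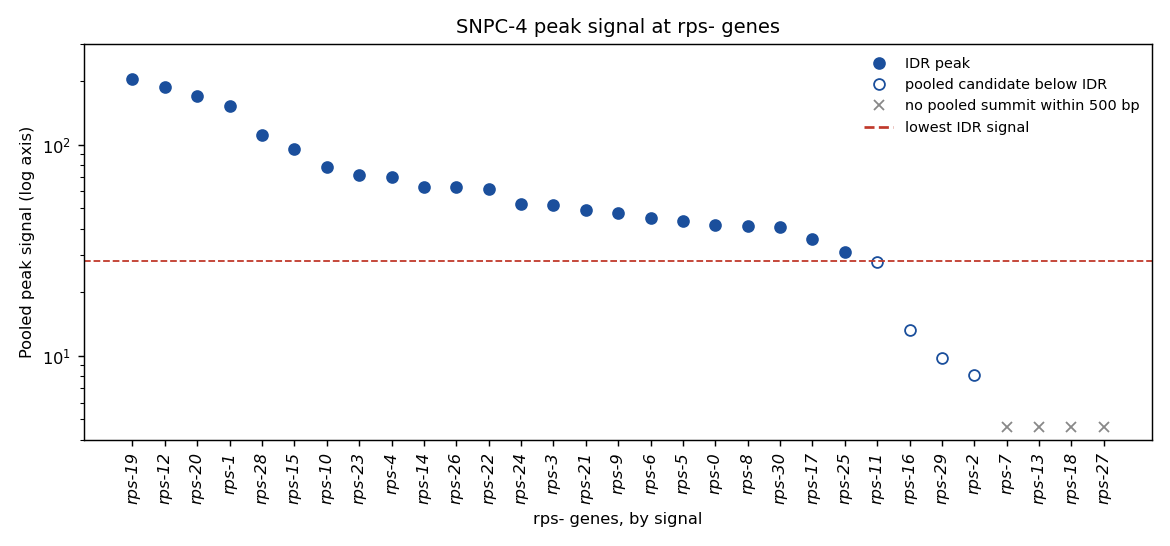
Pooled peak signal (log axis) at each of the 31 rps- genes, ordered by signal. Filled circles are the 23 genes with an IDR peak, open circles 4 genes with a weaker pooled candidate, and crosses, drawn at an arbitrary height, 4 genes with no pooled summit within 500 bp; the dashed line is the lowest IDR signal, 28.

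Proteins of the subunit head, as placed in yeast and human ribosome structures, include those that shape the mRNA entry and contact tRNA. Of the 13 head members 10 had an IDR summit, with a median signal of 86.9 (quartiles 45.6 and 156). The highest signal of all members was at *rps-19* (I, 9625049 to 9625796), whose human counterpart is mutated in Diamond-Blackfan anaemia. Its signal was 205 in the IDR list (rank 108), with 53.9 in the replicate 1 list (rank 87) and 147 in the replicate 2 list (rank 113). *rps-12* (III, 5679298 to 5680187), a protein of the beak of the head, followed with 188 (rank 111), and with 48.7 (rank 97) and 137 (rank 122) in the replicate lists. *rps-20* (I, 14468332 to 14469103) had 170 (rank 130), with 31.9 (rank 143) and 150 (rank 110). The peaks of these 3 genes were high in both replicates, at ranks from 87 to 143 in replicate 1 and from 110 to 122 in replicate 2. Each summit lay nearer the 5' end of a coding gene on the opposite strand. The distances were -276 bp from *rps-19* and -169 from *hsr-9*, -160 from *rps-12* and -133 from *ska-3*, and -229 from *rps-20* and -168 from *ekl-4*. Which gene these peaks serve was not tested.

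Among the other head members, *rps-28* had an IDR signal of 111 (rank 198), with 38.9 in replicate 1 and 71.6 in replicate 2. *rps-15*, whose protein lies near the decoding site, had 95.4 (rank 236), with 21.9 and 74.0. *rps-10*, whose protein sits at the mRNA entry, had 78.4 (rank 325), with 13.0 and 68.4. Below them came *rps-3* (51.9), a protein of the mRNA entry channel, and *rps-5* (43.5), a protein of the mRNA exit. The lowest were *rps-17* with 35.6 (rank 1337) and *rps-25* with 31.0 (rank 1640), the weakest IDR signal of any member. The *rps-25* peak was at rank 16869 of 21391 in replicate 1, with signal 2.38, and at rank 1399 of 30000 in replicate 2, with 27.

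Of the 18 body and platform members 13 had an IDR summit, with a median signal of 52.4 (44.8 and 63.0). The ranges overlapped, 31.0 to 205 at head genes and 40.6 to 153 at body and platform genes. The grouping was made after the values were known. The strongest was *rps-1* (III, 4475918 to 4476876), a platform protein, with an IDR signal of 153 (rank 144), and with 51.4 (rank 90) and 101 (rank 166) in the replicate lists. *rps-23*, which lines the decoding centre, had 71.7 (rank 380), with 17 and 52.2. *rps-4* had 70.2 (rank 399), with 13.3 and 56.1. *rps-14*, another platform protein, had 63.0 (rank 470), with 18.9 and 44.3. Close below were *rps-26* (62.7), which lies at the mRNA exit, and *rps-22* (61.7). The remaining ones were *rps-24* (52.4), *rps-21* (49.1), *rps-9* (47.5), another protein of the mRNA entry, and *rps-6* (44.8), a phosphoprotein that is a target of S6 kinase. The 3 lowest were *rps-0* (41.6), whose human counterpart is also known as the laminin receptor, *rps-8* (41.1) and *rps-30* (40.6), whose mammalian counterpart is made as a fusion with a ubiquitin-like protein.

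All 23 member peaks overlapped a peak in both replicate lists, with summits within 100 bp. Of all 1864 IDR peaks 93.2% overlapped a peak in both lists, and 86.9% had a summit within 100 bp in both. The IDR peaks come from the pooled reads of these same replicates, so this overlap is no separate support. IDR and pooled ranks were equal at every member, down to rank 1640, so no stronger pooled peak was left out that far. Peaks with unlike ranks in the replicates were therefore kept, such as that of *rps-0*, given below. The replicate 1 summit lay a median of 20 bp from the IDR summit and at most 45 bp, and the replicate 2 summit a median of 1 bp and at most 39 bp. Across the 23 members the signals of the replicates had Spearman rho = 0.700 (Pearson r = 0.734 on log2 values), a description over genes measured in the same libraries. The order differed most at weaker genes. *rps-0* ranked 17884 in replicate 1 (signal 2.29) and 757 in replicate 2 (38.6), and *rps-21* ranked 6309 (3.99) and 548 (45.2). *rps-30* went the other way, at rank 393 in replicate 1 (17.6) and rank 2011 in replicate 2 (21.1).

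**Figure D2:**
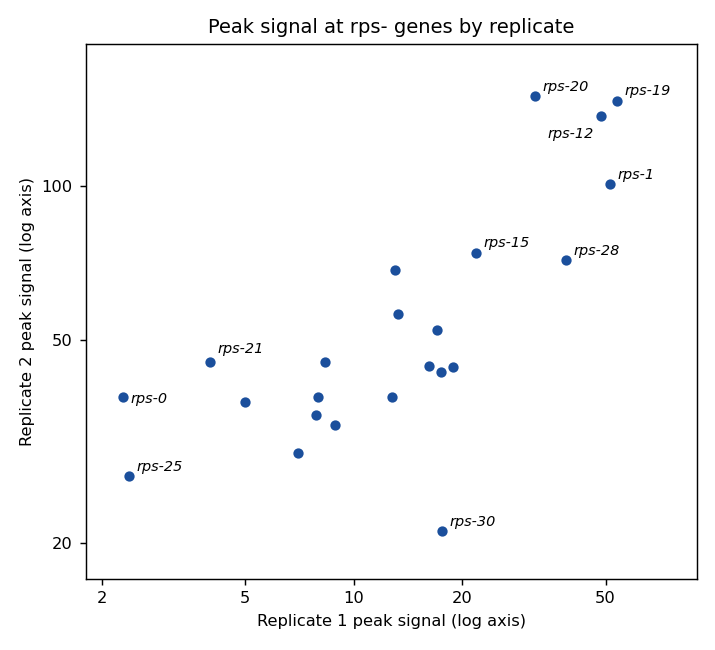
Peak signal in replicate 1 (horizontal, log axis) against replicate 2 (vertical, log axis) for the 23 rps- genes with an IDR summit, each point 1 gene. *rps-19*, *rps-12*, *rps-20* and *rps-1* are high in both lists, *rps-0*, *rps-25* and *rps-21* are low in replicate 1, and *rps-30* is low in replicate 2; the axes are not on a common scale.

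With each replicate list limited to its 1864 strongest peaks, 23 members had a summit in replicate 2 alone (6.50% of all coding genes) and 19 in replicate 1 alone (5.64%). Replicate 2 alone lost *rps-30* and gained *rps-11*. Replicate 1 alone lost *rps-0*, *rps-8*, *rps-17*, *rps-21* and *rps-25* and gained *rps-13*.

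The summits had a narrow range of positions. All 23 lay upstream of the annotated 5' end, at distances from -431 to -124 bp (negative is upstream), with a median of -294 bp (quartiles -334 and -246). Over the 1267 coding genes with an IDR summit the median was -177 (-284 and -97.0), and at the 1209 outside both ribosomal families it was -174 (-279 and -90.0). A summit more than 200 bp upstream was found at 21 of 23 members (91.3%), at 30 of 35 rpl- genes (85.7%) and at 513 of the 1209 other genes (42.4%). The median at rpl- genes was -293 (-364 and -241), so the ribosomal families had nearly the same position. The start codon lay a median of 10 bp past the nearest annotated 5' end of the 31 members (quartiles 5 and 16, from 0 to 86). Whether annotated 5' ends at these genes are leader splice sites was not examined.

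**Figure D3:**
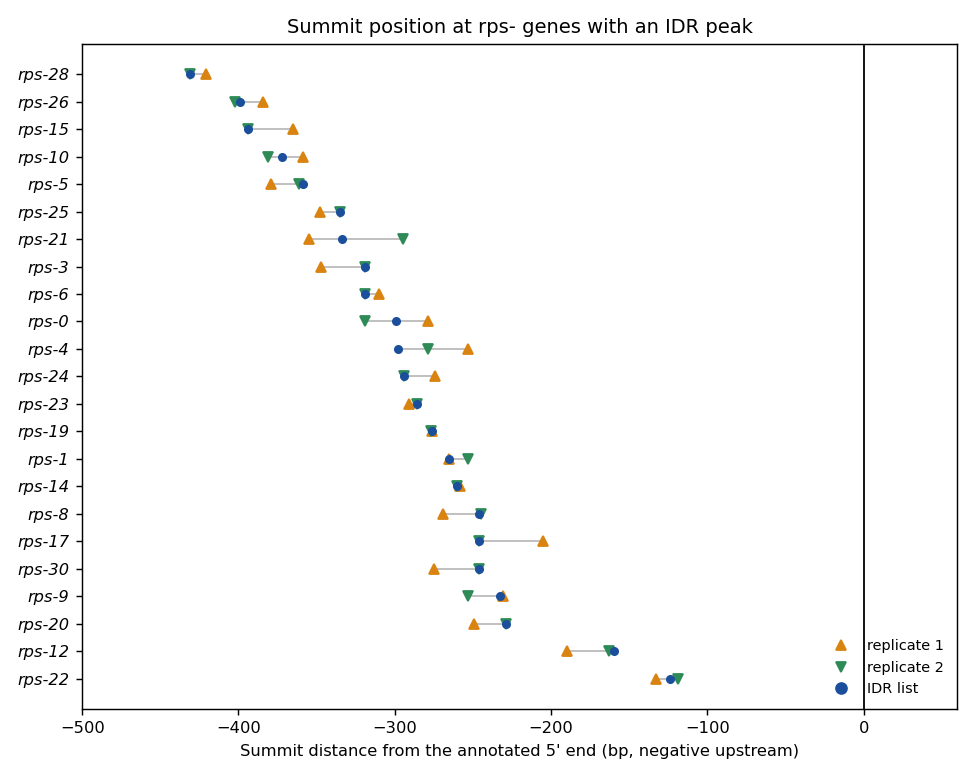
Distance in bp of the strongest summit from the annotated 5' end (negative is upstream) for the 23 rps- genes with an IDR peak, in the replicate 1, replicate 2 and IDR lists. All symbols lie upstream, from *rps-28* at -431 to *rps-22* at -124 in the IDR list.

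**Figure D4:**
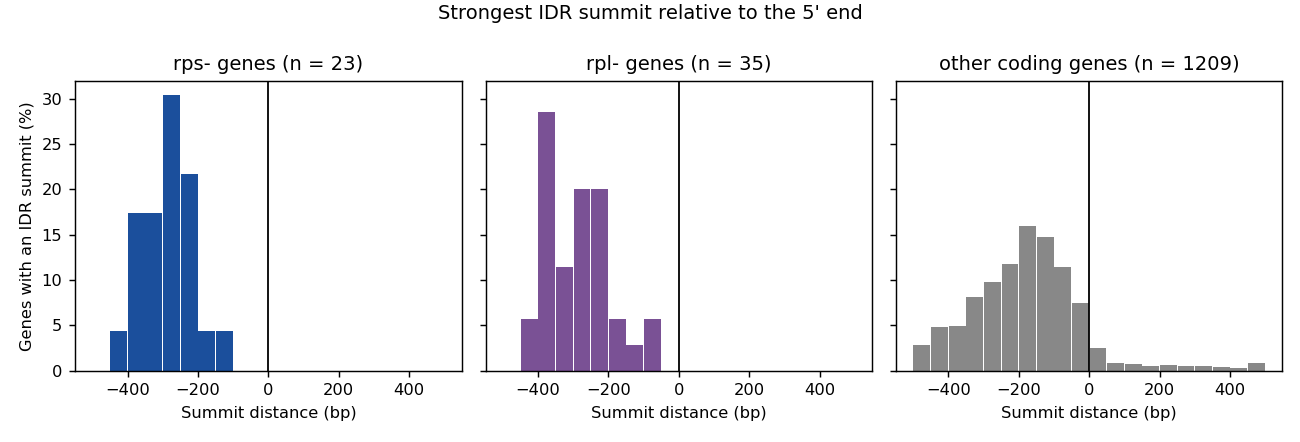
Share of genes (%) by the position of the strongest IDR summit in 50 bp bins from the 5' end, for 23 rps- genes, 35 rpl- genes and 1209 other coding genes. The rps- and rpl- genes have no summit past the 5' end and centre near -294 and -293, and the other genes centre near -174.

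The furthest summits were at *rps-28* (-431), *rps-26* (-399), *rps-15* (-394) and *rps-10* (-372). The nearest were at *rps-22* (-124) and *rps-12* (-160), the only members with a summit within 200 bp. The order of the distances was alike in the replicates (Spearman rho = 0.922 over 23 genes), with a median difference of 20 bp between them. No IDR summit lay inside a member's gene body.

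Members often had a coding gene close upstream on the opposite strand. An opposite-strand coding gene with its 5' end upstream and within 1000 bp, called a divergent neighbour here, was present at 19 of 31 members (61.3%), at 28 of 47 rpl- genes (59.6%) and at 3749 of all coding genes (18.8%). An IDR summit was found at 15 of the 19 members with such a neighbour (78.9%) and at 8 of the 12 without (66.7%). Over all coding genes the shares were 17.4% with and 3.78% without. At the 15 members the summit lay upstream of both 5' ends, that is, between the genes, and was nearer to the member at 5 of them. The summit at *rps-26* was at -399 bp from the member and -58 bp from *tmem-107*. That at *rps-0* was at -299 bp from the member and -74 bp from *rbg-3*. The peaks at *rps-26* and *rps-0* thus lay nearer the neighbour's 5' end. At the 15 members with a divergent neighbour the median distance was -276 and the median signal 63.0 (quartiles 49.7 and 124), and at the 8 without one -316 and 46.3 (39.7 and 56.8). The 8 without one, *rps-4*, *rps-5*, *rps-8*, *rps-17*, *rps-21*, *rps-24*, *rps-25* and *rps-28*, had no other coding 5' end within 500 bp of the summit.

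Another coding 5' end lay within 500 bp of the summit at 14 of the 23 member peaks (60.9%). Over the 986 IDR peaks with a coding 5' end that near, 298 (30.2%) had more than 1 gene. The member had the nearest 5' end at 4 of the 14, *rps-9*, *rps-14*, *rps-22* and *rps-30*. No peak was shared by a pair of rps- genes, and 3 were shared with a large-subunit gene. The *rps-10* peak lay -372 bp from *rps-10* and -238 bp from *rpl-24.1*. The *rps-14* peak lay -260 bp from *rps-14* and -403 bp from *rpl-36*. The *rps-30* peak lay -246 bp from *rps-30* and -253 bp from *rpl-39*. At the remaining 11 the neighbour was *rbg-3*, *sna-3*, *usp-3*, *lsm-1*, *ska-3*, *F36A2.9*, *hsr-9*, *ekl-4*, *polh-1*, *dpm-3* or *tmem-107*. *lsm-1* encodes a protein of mRNA decay, and *polh-1* a DNA polymerase. Which gene a shared peak serves was not tested.

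Intronic snoRNA genes were hosted on the same strand by 5 of 31 members (16.1%), against 8 of 47 rpl- genes and 0.655% of all coding genes. An IDR summit was found at 3 of the 5 hosts and at 20 of the 26 other members (76.9%). At rpl- genes it was found at 7 of 8 hosts (87.5%) and 28 of 39 others (71.8%), and over all coding genes at 26.7% of hosts and 6.21% of others. The order of the shares at the members was the opposite of that over all coding genes, but it rests on 5 hosts. The 95% exact intervals, which cover the counting of genes only, were 14.7 to 94.7% at hosts and 56.4 to 91.0% at other members. Whether the shares differ was not tested, and no difference is read from so few hosts. The hosts with a summit were *rps-4* (70.2), *rps-12* (188) and *rps-23* (71.7), and those without were *rps-13* and *rps-29*. *rps-12* hosts *F54E7.10* and *F54E7.11*, whose 5' ends lie 80 and 447 bp past that of the host. The *rps-12* summit was at -240 bp from *F54E7.10*, further than the -160 bp to the host. At *rps-4* (*Y43B11AR.7*) and *rps-23* (*F28D1.13*) the summit was at -1050 and -684 bp from the hosted snoRNA gene, upstream of the host's own 5' end as well. No other IDR summit lay within 250 bp of any of the 7 hosted snoRNA genes. The pooled list added a candidate of signal 7.91 near *B0412.7* in *rps-29*, and replicate 1 a candidate of 3.91 near *C16A3.11* in *rps-13*.

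A noncoding gene of any kind but piRNA genes lay within 250 bp of 7 of the 23 summits (30.4%). The share was 24.2% of all 1864 IDR summits and 15.9% of those at other coding promoters. A tRNA or snRNA gene lay there at 0 of the 23 (95% exact upper limit 14.8%), against 7.14% of all IDR summits and 3.72% of those at other coding promoters. The unclassified kind was near 5 member summits (21.7%), against 17.5% of all and 11.8% of those at other coding promoters. A snoRNA gene lay there at *rps-12*, as given, and at *rps-26* (*F39B2.14*, 119 bp). These are 2 of 23 (8.70%), against 3.76% of all IDR summits and 2.19% of those at other coding promoters. Unclassified noncoding RNA genes lay across the summit at *rps-0* (*B0393.12*), *rps-1* (*F56F3.10*), *rps-6* (*Y71A12B.30*), *rps-10* (*D1007.22*) and *rps-30* (*C26F1.13*). Another lay within 250 bp of the summit at *rps-1* (*F56F3.11*), *rps-6* (*Y71A12B.31*) and *rps-30* (*C26F1.14*). In the 500 bp upstream of the gene, such a noncoding gene was annotated at 7 of 31 members (22.6%), at 10 of 47 rpl- genes (21.3%) and at 5.43% of all coding genes. An IDR summit was found at 5 of the 7 members with one and at 18 of the 24 without. At rpl- genes it was found at 9 of 10 with one and 26 of 37 without, and over all coding genes at 14.4% with one and 5.88% without. The members with such a noncoding gene and no summit were *rps-2* and *rps-13*.

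The 8 members with no IDR summit differed in what the other lists held. A pooled candidate was present at 4 of them (33.8% of the coding genes without an IDR summit had one). *rps-11*, whose protein lies in the body, was closest to the threshold, with a pooled signal of 27.8 (rank 1887) just under the lowest signal in the IDR list, 28. Its summit was at -351, within the range of the bound members, and it was listed in replicate 2 (signal 22.6, rank 1810) but not in replicate 1. The IDR member just inside was *rps-25* at 31.0. *rps-16*, whose protein reaches the tRNA in the P site, had 13.2 at 259 bp past the 5' end, inside the gene, with 6.38 at 254 bp in replicate 1 and no summit in replicate 2. *rps-29*, a zinc-binding protein of the head, had 9.76 at -322, and *rps-2*, a protein of the mRNA entry, 8.14 at -192. Each was listed in replicate 2 (7.75 and 9.09) and not in replicate 1. The *rps-29* candidate lay nearer the divergent neighbour *snt-2*, at -245 bp from its 5' end.

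The other 4 had no pooled summit within 500 bp. *rps-13*, *rps-7* and *rps-18* had a summit in replicate 1 only. Of all coding genes, 9.91% had a replicate 1 summit and no pooled one. The *rps-13* summit ranked 679 of 21391 in replicate 1, with signal 13.2 at -193. Among the 1000 strongest replicate 1 peaks 982 overlapped a pooled peak, and of 650 coding genes with a summit that high 25 lacked a pooled summit (3.85%). *rps-7* had a signal of 5.4 at -264 (rank 3269) and *rps-18*, a head protein that contacts the large subunit, 5.99 at -336 (rank 2626). *rps-27*, a zinc-binding protein of the platform, had a weak summit 87 bp past its 5' end in replicate 2 (5.04, rank 25205) and none in replicate 1.

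Peaks lay just outside the window at some of these genes. An IDR summit of signal 48.3 lay at -612 from *rps-27* and at -136 from its divergent neighbour *picd-1*. An IDR summit of 34.6 lay at -528 from *rps-29* and at -39 from its divergent neighbour *snt-2*, which encodes a synaptotagmin. A pooled candidate of 21 lay at -526 from *rps-18*, 111 bp inside *sec-61.A*, which encodes the channel of the Sec61 translocon. At 1000 bp the members with an IDR summit were 25 (8.27% of all coding genes), with *rps-27* and *rps-29* added. By chromosome an IDR summit was found at 7 of 8 members on I, 1 of 1 on II, 7 of 9 on III, 7 of 10 on IV and 1 of 3 on V. The share of all coding genes was not computed by chromosome, so no difference between chromosomes is read from these counts.

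Other translation genes, listed by name, also had IDR summits. The share was 35 of 47 for rpl- genes (74.5%, median signal 61.8, quartiles 45.9 and 82.1), close to that of the rps- genes. Of the small-subunit genes outside the name rule, *ubl-1* had a signal of 43.5 at -199, and *rack-1* had a pooled candidate of 15.6 at -262 and no IDR summit. The stalk protein genes had an IDR summit at 1 of 3, *rla-0*. The mitochondrial families had 5 of 29 for mrps- (17.2%) and 7 of 41 for mrpl- (17.1%), with median distances of -161 and -157. Initiation factor genes had 12 of 34 (35.3%, median distance -223). Elongation factor genes had 6 of 6, with a median distance of -93.0. The nucleolar genes had 4 of 8, *fib-1*, *nol-56*, *nol-10* and *nol-58*. *fib-1* encodes fibrillarin, which methylates ribosomal RNA. Its IDR summit, of signal 80.6, was also the nearest to *rps-16*, at -1783 from that gene. All shares are read against the 6.34% of all coding genes, and none of these differences was tested.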

How the data were processed

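ChIP-seq peaks of 2 biological replicates were used, with library fragments of 150 to 350 bp per the labels. Per the deposited description files, the authors called loose peak sets with a control alignment, 1 per replicate and 1 on the replicates pooled, and passed them to IDR. Their aligner and peak caller are not given in the sources used here. Columns were read by position, since the lists have no header. The signal in the deposited lists is the peak caller's strength per peak. The deposited −log10 q value was 2.48 at every IDR peak and was used only to describe the list. The lists held 1864 (IDR), 30000 (pooled), 21391 (replicate 1) and 30000 (replicate 2) peaks on ce11; lists on the older build were not used here. No read count was at hand, so depth is unknown, and intervals cover counting of genes only. Whether the replicates came from separate cultures is not stated.

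A gene was given the strongest peak whose summit lay within 500 bp of any annotated 5' end (Ensembl release 115). Distances are signed along the gene, negative upstream, and shares carry exact (Clopper-Pearson) 95% intervals. Sequence came from the RefSeq assembly WBcel235. With 1 group no test was run: members are set beside all protein-coding genes. The assignment was tested on simulated data. Genes were named by signal (the 10 strongest and 5 weakest), by absence of an IDR peak, by a peak shared with an rpl- gene and by a hosted snoRNA gene, and the rest by position. The members, lists and rules were chosen with earlier results of these data known. Alternatives were other windows, the most upstream 5' end, peak overlap, the stronger IDR peaks, each replicate left out, and other backgrounds. Computation used Python 3.11.15, numpy 2.4.6, pandas 2.3.3, scipy 1.17.1 and matplotlib 3.10.9.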

Additional observations from a re-analysis of the deposited data

How the results depend on the processing

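The count of members with an IDR summit was 23, with 7 at 250 bp, 25 at 1000 bp and 1 where the peak interval had to cover the 5' end, since the summits lay far upstream; it was 19 to 23 with a replicate left out. The pooled count of 27 was 8 at 250 bp. The median IDR signal of 61.7 was 47.5 at 250 bp, 52.4 at 1000 bp and 70.2 in the stronger peaks by rank, settings that change which genes enter. The median distance of -294 was -233 at 250 bp. In the full candidate list of a single replicate, with 27 members each, it was -275 (replicate 1) and -286 (replicate 2). The share of 6.34% of all coding genes was 74.5% among rpl- genes and 16.7% among genes with a pooled candidate. All other alternatives run left these values within 1.5 times (counts) or within the replicate spread. No paired analysis was possible because there is 1 group. Unknown depth limits what the absence of a peak at the 8 members shows.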
